A study of Rattus norvegicus with 8 samples.

Results

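The microRNAs (miRNAs) miR-455 and miR-139 were examined in serum exosomes of rats with reflux esophagitis (RE). Every rat miRNA on the array whose name begins with miR-455 or miR-139 was taken, which gave 4 of 719 rat miRNAs, rno-miR-455-5p, rno-miR-455-3p, rno-miR-139-5p and rno-miR-139-3p, written without the species prefix from here on. These hairpins were chosen by the total signal and the detection calls of miR-455-5p and miR-139-3p, which had been lower in RE than in controls on these same arrays. Their difference between the groups is therefore given as a description, with no test. The RE group was 4 serum samples, replicates 5, 8, 9 and 10, from specific pathogen-free male Wistar rats on day 21, the chronic phase, after reflux had been provoked by banding the duodenum next to the pylorus and tying the border between forestomach and glandular stomach. The control group was 4 serum samples, replicates 1 to 4, from sham-operated male rats of the same strain. The study describes its array comparison with controls as one of day 21, while the labels give no day for the controls. The sources used here do not say whether each sample came from its own rat, so spread between samples may be technical. Vesicles were precipitated with Exoquick, which does not select them by the cell they came from, and their RNA was measured on 1 single-colour Agilent array per sample.

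A miRNA hairpin is cut into 2 arms, and either arm can be loaded into the silencing complex, where its seed pairs with target messages. The rat gene for miR-455, Mir455, lies on chromosome 5 within Col27a1, which encodes a fibrillar collagen of cartilage, and miR-455 is known from cartilage cells and, in mouse, from the making of brown fat. Mir139 lies on chromosome 1 within Pde2a, which encodes a phosphodiesterase. In human tumour cells miR-139-5p is known as a repressor of the growth factor receptor gene IGF1R and of the chemokine receptor gene CXCR4, and its level is low in several carcinomas.

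The hairpins are shown because they place each array probe on its arm. They were taken from RefSeq (rat build GRCr8), run 5′ to 3′, and have in capitals the bases that a probe of the array can pair with.
Mir455: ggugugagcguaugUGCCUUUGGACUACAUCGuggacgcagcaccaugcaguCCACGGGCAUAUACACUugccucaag
Mir139: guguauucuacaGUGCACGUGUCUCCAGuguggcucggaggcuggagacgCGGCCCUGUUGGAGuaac
In the mature sequences, which RefSeq gave for 3 of the 4 members, the capitals mark the seed, bases 2 to 8.
miR-455-3p: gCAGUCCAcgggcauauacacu
miR-139-5p: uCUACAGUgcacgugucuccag
miR-139-3p: uGGAGACGcggcccuguuggag
The 3 seeds differ, and none of the 641 array miRNAs with a RefSeq sequence other than the member itself carries one of them.

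The values below rest on the probes, so the probes of the 2 members that were detected are given too, 5′ to 3′, as the array design gives them.
miR-455-5p, 18 bases: cgatgtagtccaaaggca
miR-139-3p, 14 bases: ctccaacagggccg
miR-139-3p, 13 bases: ctccaacagggcc
The array design maps the miR-455-5p probe to chr5:80239861-80239878 on rn4, and it was printed on 20 spots of each array. The longer miR-139-3p probe maps to chr1:158976627-158976639 and the shorter to chr1:158976628-158976639, each with 10 spots, and both intervals are given by the design a base shorter than their probe. The longer one pairs with bases 9 to 22 of the mature miRNA and the shorter with bases 10 to 22, so neither reads the seed.

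The arrays themselves differed in brightness before any member was looked at. RE samples had between 144 and 245 detected miRNAs and controls between 212 and 232. The 75th percentile of the signal over the 144 miRNAs detected on all 8 arrays, by which each array was divided, was 1052, 1080, 239 and 442 in RE replicates 5, 8, 9 and 10, against 494 to 915 in controls. RE replicates 5 and 8 were brighter and replicates 9 and 10 dimmer than every control, and replicate 9 stood lowest on both counts. All arrays were on 1 slide, with the RE arrays in one row and the control arrays in the other, so slide row and group cannot be told apart. Of the marker lists for sources of serum vesicles, miRNAs of red blood cells were detected on every array for 3 of 3 members, those of leukocytes for 4 of 4, and those of platelets and endothelium for 2 of 4. Only 1 of 3 liver markers and 1 of 7 striated muscle markers were detected on every array, and miR-194-5p of the liver list was detected on none. Summed over their detected members, the scaled signal was 0.322 to 0.384 in RE against 0.368 to 1.13 in controls for liver. For striated muscle it was 0.540 to 2.71 in RE against 1.72 to 2.94 in controls. The muscle member miR-208a-3p was called lower in the fit described below. It was detected on 1 of 4 RE arrays and 4 of 4 control arrays, so it entered that fit through the controls alone. The corresponding ranges were 7.43 to 18.3 in RE and 8.71 to 21.8 in controls for red blood cells, 3.22 to 6.81 in RE and 2.86 to 5.36 in controls for platelets and endothelium, and 2.30 to 5.21 in RE and 2.73 to 3.40 in controls for leukocytes. The part of these sources in the values of miR-455 and miR-139 was not tested, nor was that of the array brightness.

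miR-455-5p was called detected on 0 of 4 RE arrays and on 4 of 4 control arrays. The software lists its total signal at 0.1, the value of an undetected miRNA, on every RE array, and at 32.1, 26.2, 25.3 and 42.4 in control replicates 1, 2, 3 and 4. Only 2 of 719 miRNAs (0.278%) were detected on all controls and on no RE array, and 0 had the reverse pattern. The other was miR-125b-1-3p, whose spots were well above background in 0 of 80 cases in RE and 12 of 80 in controls. Of all rat miRNAs, 192 miRNAs were detected on all controls, 48 of these were missed on at least 1 RE array, and 0 were detected on all RE arrays but not all controls. Of the 48, 33 were detected on 3 RE arrays. The 144 miRNAs detected on RE replicate 9, a dim array, were the same 144 that were detected on all 8 arrays. Both counts of 0 were therefore fixed by that array and are not a result about the groups.

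The listed value of 0.1 stood for a probe signal that was lower than in controls and above 0, though in RE replicate 8 little more than its own error. The probe of miR-455-5p had a total signal of 12.1, 5.47, 10.3 and 17.4 in RE replicates 5, 8, 9 and 10, and the 4 control values above are the same quantity. Without scaling every RE array was therefore below every control array. The software called a miRNA detected where a probe exceeded 3 times its own error, a rule that held for all 5752 pairs of miRNA and array. For miR-455-5p the signal was 2.56, 1.15, 1.81 and 2.997 errors in RE replicates 5, 8, 9 and 10, against 5.78, 5.35, 4.65 and 6.35 errors in control replicates 1, 2, 3 and 4. RE replicate 10 missed the limit narrowly, and the nearest control lay well inside it.

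**Figure D1:**
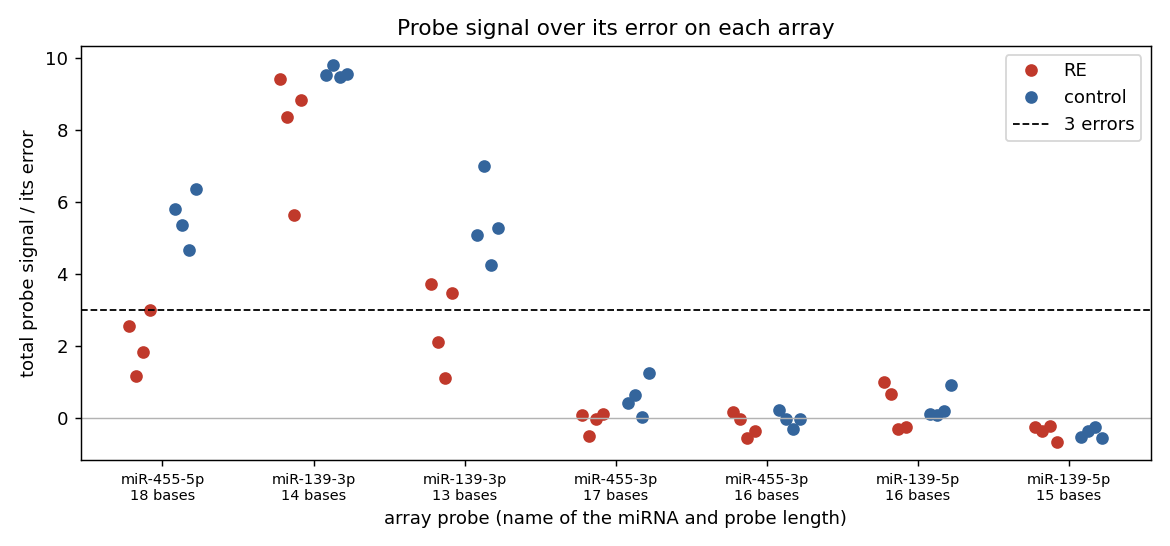
Total signal of each probe divided by the error the software gives it (y axis, no unit), for the 7 probes of the 4 miRNAs (x axis), with 1 point per array, RE in red on the left and control in blue on the right of each probe. The dashed line is the limit of 3 errors, which miR-455-5p passed on 4 control arrays and on 0 RE arrays, while both arms without detection lay between -0.67 and 1.23 errors.

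The total signal is computed from the single spots, so their order is the same measurement and no further support. Spots of an array are repeats of 1 sample. Of the 80 spots of miR-455-5p in each group, 4 (5%) were well above background in RE, all on replicate 10, and 70 (87.5%) in controls. The mean of the 20 spots was 9.26, 3.87, 8.03 and 13.1 in RE replicates 5, 8, 9 and 10, against 24.2, 19.9, 19.6 and 32.0 in control replicates 1, 2, 3 and 4. The RE spots were not all at the level of empty spots. Of the 80, 35 exceeded the 95th percentile of the negative control spots of their array. The counts were 14, 1, 6 and 14 of 20 in replicates 5, 8, 9 and 10, and that of replicate 8 was no more than empty spots give. In controls 80 of 80 did so. Outlier marks fell on 2 of these spots in RE and 4 in controls.

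**Figure D2:**
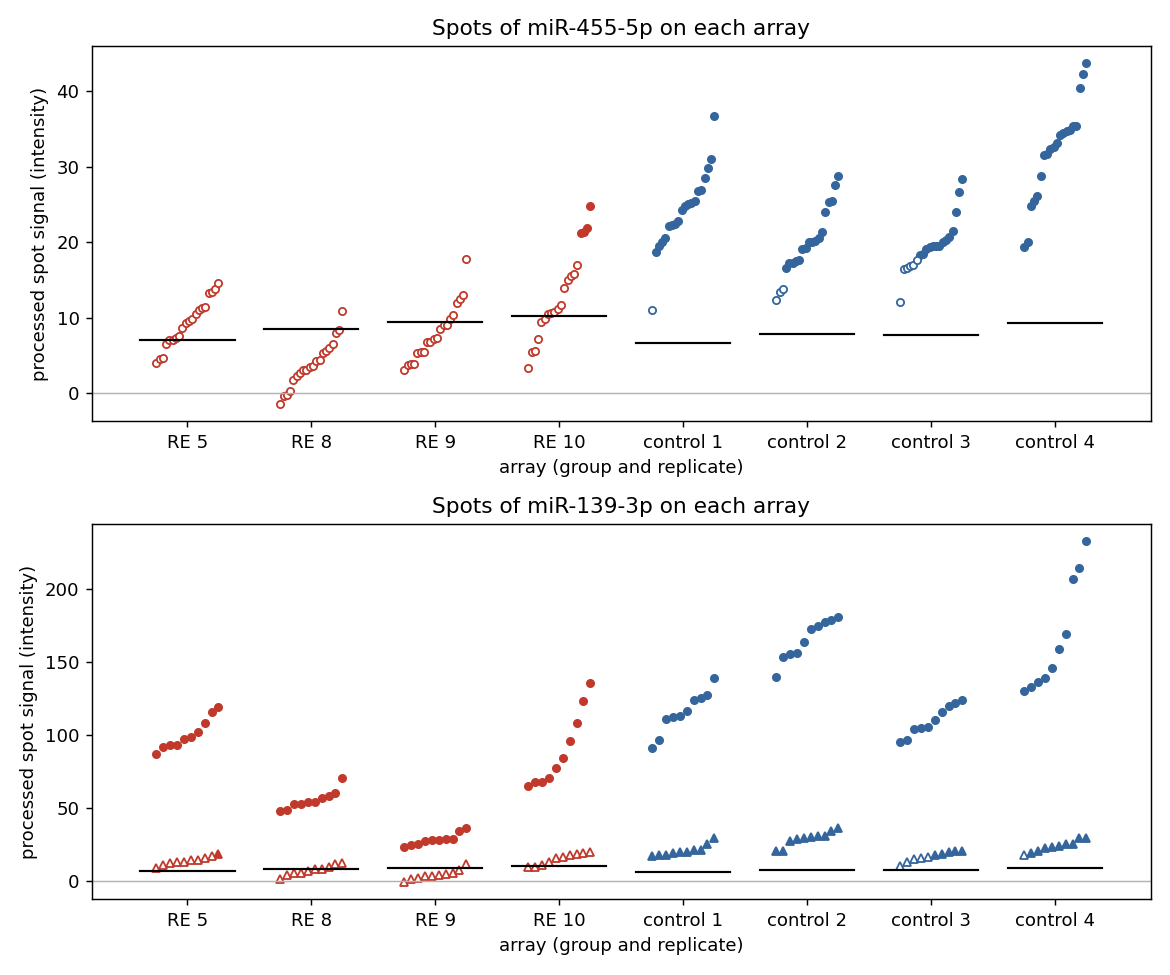
Processed intensity of every spot of miR-455-5p (upper panel) and miR-139-3p (lower panel) on each array (x axis, RE left and control right), with filled points for spots well above background and a black bar at the 95th percentile of the negative control spots. In the lower panel circles are the probe of 14 bases and triangles that of 13 bases. All spots of miR-455-5p lie above the bar in controls, and 35 of 80 do in RE.

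After division by the 75th percentile of the array, the log2 signal of miR-455-5p was -6.44, -7.63, -4.54 and -4.67 in RE replicates 5, 8, 9 and 10, against -4.18, -4.24, -4.47 and -4.43 in control replicates 1, 2, 3 and 4. The RE arrays spanned 3.09 log2 units and the controls 0.28. RE replicates 5 and 8 lay far below the controls, while replicates 9 and 10, the dim arrays, lay just below them, with a gap of 0.072 log2 units between the highest RE array and the lowest control. That gap is small beside the error of the probe, which was 5.68 on a signal of 10.3 in RE replicate 9. The order of these neighbours was not separated beyond their error. The mean was -5.82 ± 1.49 in RE and -4.33 ± 0.14 in controls (SD, n = 4 each), a log2 difference of -1.49 that takes the undetected RE arrays at the signal of their probe. In RE replicate 8 that signal was 5.47 with an error of 4.78, so how far it lay below the controls was not resolved. The study's methods name a percentile over every measurement of a species, read here as the listed totals of all rat miRNAs. With that percentile the difference was 0.21, but there the median of all fitted miRNAs was 1.497, as RE replicate 9 is divided by 0.1. Relative to that median miR-455-5p stood at -1.29. Fewer vesicles that carry a miRNA and less of it per vesicle cannot be told apart in such samples.

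**Figure D3:**
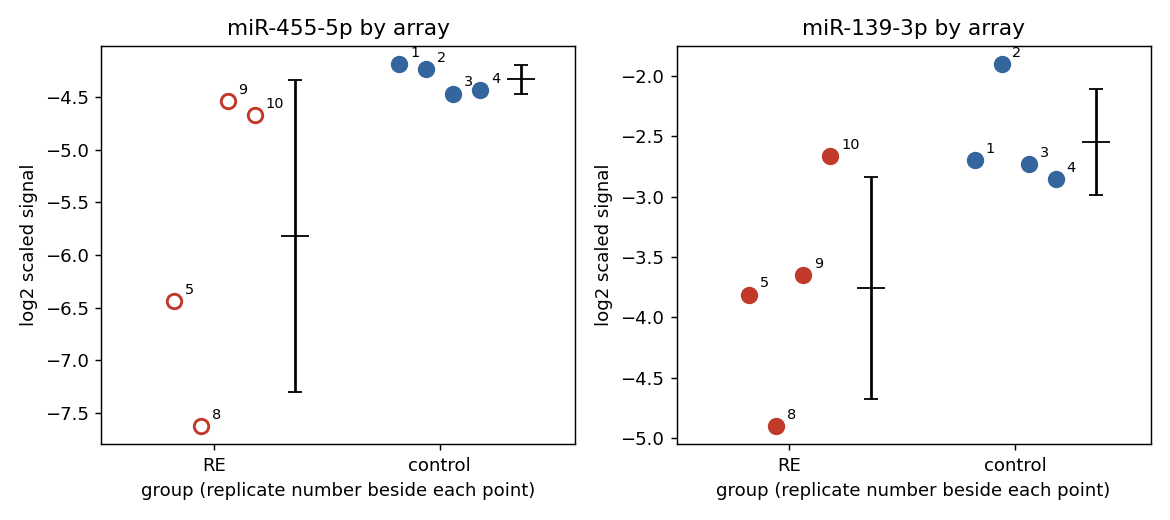
Log2 scaled signal (y axis) of miR-455-5p (left) and miR-139-3p (right) for each array, RE on the left and control on the right of each panel, with the replicate number beside each point and the mean with its SD (n = 4) in black. Open points are arrays on which the miRNA was not detected, drawn at the signal of its probe. RE replicates 9 and 10 of miR-455-5p lie next to the controls and replicates 5 and 8 far below.

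In the fit across all miRNAs (limma, Benjamini-Hochberg adjusted), which sets undetected arrays to a common floor, 2 of 192 (1.04%) were called lower in RE and 0 higher. Before adjustment, 5 were lower and 0 higher at 0.05 in limma, and 3 lower and 0 higher in the methods' own test. Of the 192, 48 entered through the controls alone and 0 through RE alone. Their floored RE arrays tilt those 48 toward lower, so the balance of lower and higher is not a result about the groups. Among the 144 detected on all arrays, 0 were called after adjustment. miR-455-5p was one of the 2 called among the 192, on the same signals it was chosen by. It entered the fit through its detection in controls alone. All its RE arrays stood at the floor, with an SD of 0, and the log2 difference there was -3.83. The call therefore restates its detection pattern. On these floored values the groups did not overlap in 3 of 192 miRNAs (1.56%), all lower in RE, among them miR-455-5p. For miR-455-5p this was fixed by the detection calls, since its RE arrays all stood at the floor and its controls were all detected. When undetected miRNAs kept the signal of their own probes in place of the floor, the fit called 1 miRNA, miR-208a-3p, and miR-455-5p no longer passed. The log2 difference of miR-455-5p was -0.22 with the normexp background correction, with 2 RE arrays then at or above the lowest control. That correction added an offset of 50 to every spot, more than any array mean of miR-455-5p, which shrinks log2 differences of low signals. The log2 difference was -0.89 without RE replicate 8 and -1.80 without RE replicate 9, the array that stood apart.

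The other arm, miR-455-3p, was detected on 0 of 4 RE arrays and 0 of 4 control arrays. Its probes stood between -0.56 and 0.15 errors in RE and between -0.31 and 1.23 errors in controls. Of its spots, 0 of 80 were well above background in each group. The mean over its 20 spots was between -0.97 and 0.48 in RE and between -0.51 and 2.34 in controls, so no level and no fold can be given for this arm.

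miR-139-3p was detected on all 8 arrays. Its total signal was 74.99, 36.2, 19.0 and 69.7 in RE replicates 5, 8, 9 and 10, against 90.0, 131.8, 83.9 and 126.1 in control replicates 1, 2, 3 and 4. Before scaling every RE array was below every control, as for miR-455-5p. After scaling the log2 signal was -3.81, -4.90, -3.65 and -2.66 in RE replicates 5, 8, 9 and 10, against -2.70, -1.90, -2.73 and -2.86 in control replicates 1, 2, 3 and 4. The groups then overlapped, since RE replicate 10 was above every control but replicate 2, and the other 3 RE arrays were below all controls. Of the 4 RE arrays the lowest was replicate 8, as it was for miR-455-5p.

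The mean log2 signal of miR-139-3p was -3.76 ± 0.91 in RE and -2.55 ± 0.43 in controls (SD, n = 4 each). The difference of -1.21 log2 units, or 2.31-fold lower in RE, was not among the calls, and it was 0.49 with the percentile over all rat miRNAs, or -1.01 relative to the median of 1.497 there. For orientation, the median difference of the 192 miRNAs with undetected ones at their own signal was -0.18, and relative to it miR-455-5p stood at -1.31 and miR-139-3p at -1.03. The difference of miR-139-3p was -0.47 with normexp and its offset of 50, -0.83 without RE replicate 8 and -1.13 without RE replicate 9.

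miR-139-3p was read by both of its probes. For the probe of 14 bases, 40 of 40 spots were well above background in RE and 40 of 40 in controls, and the log2 difference was -1.08. For the probe of 13 bases, 1 of 40 spots was well above background in RE and 34 of 40 in controls. In RE replicates 8 and 9 the shorter probe stayed under 3 errors, and was left out of the total by the software, which there holds the longer probe alone.

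miR-139-5p, the arm with the known targets, was detected on 0 of 4 RE arrays and 0 of 4 control arrays. Its probes stood between -0.67 and 0.98 errors in RE and between -0.57 and 0.92 errors in controls, and 0 of 80 spots were well above background in each group. The mean over its 20 spots was between -1.65 and 1.13 in RE and between -0.94 and 0.67 in controls. A change of this arm, or of the ratio of the 2 arms, was not detectable here. Its probes pair with the 3′ part of the mature miRNA, from base 7 or 8 to base 22.

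**Figure D4:**
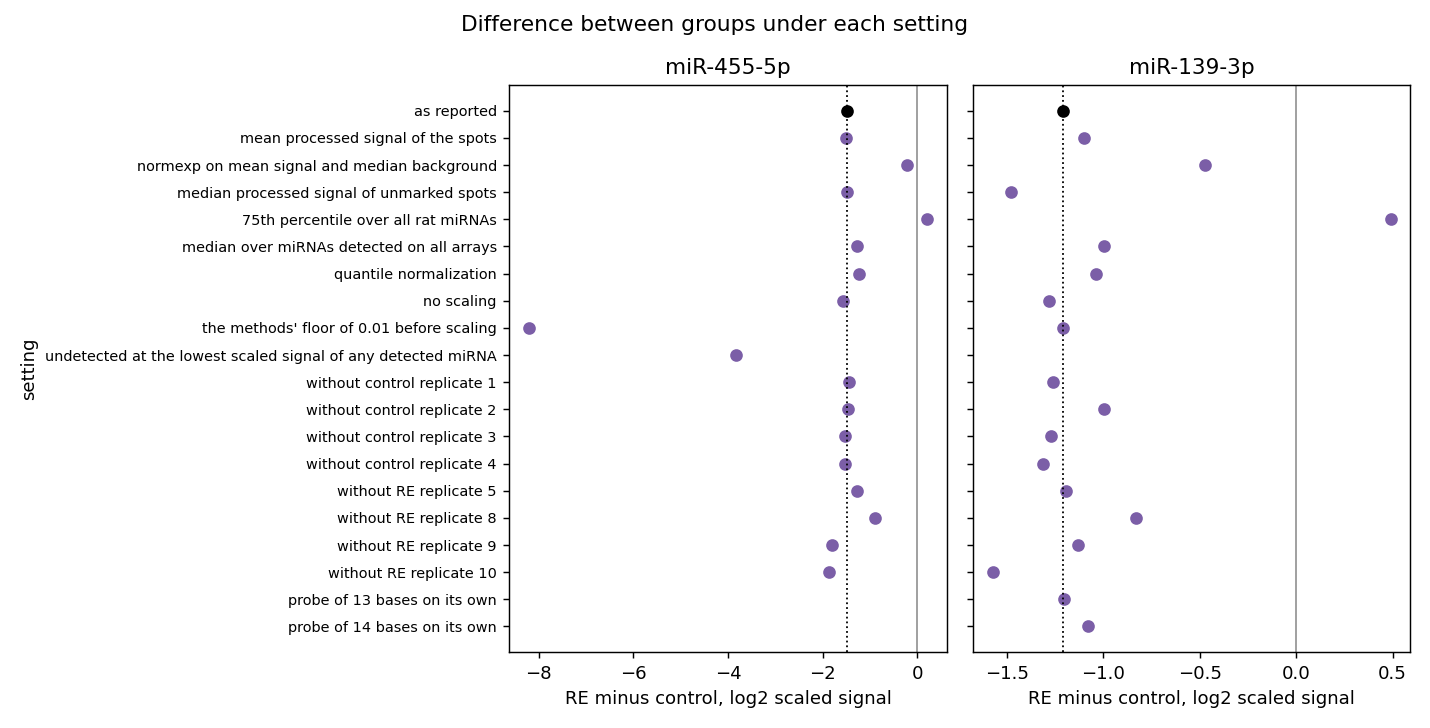
Difference between RE and control in log2 scaled signal (x axis) for miR-455-5p (left) and miR-139-3p (right) under each setting (y axis), with the reported value in black and its position as a dotted line. Only the percentile over all rat miRNAs puts the points right of 0, at 0.21 and 0.49, where the median of all fitted miRNAs was 1.497, and the value of miR-455-5p runs to -8.19 where undetected arrays stay at 0.1.

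The miRNAs whose signal kept the steadiest ratio to miR-139-3p were named by the SD of that log2 ratio over the 8 arrays, in which the scaling cancels. Among 143 miRNAs the median SD was 0.90, and the smallest were those of miR-874-3p (0.38), miR-327 (0.51), miR-150-3p (0.51), miR-494-3p (0.52) and miR-3099 (0.53). miR-874-3p averaged -6.08 ± 1.26 in RE and -4.89 ± 0.58 in controls on the log2 scale (SD, n = 4 each), a difference of -1.19. miR-494-3p averaged -0.81 ± 1.44 in RE and 0.37 ± 0.40 in controls, a difference of -1.18. The differences of miR-327, miR-150-3p and miR-3099 were smaller, at -0.41, -0.43 and -0.56. A steady ratio over RE and control arrays together favours miRNAs with a difference like that of miR-139-3p. These differences follow in part from that choice and are no further support.

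The miRNAs known from the same settings as miR-455 gave no call other than miR-455-5p itself, whose call restates the detection pattern it was chosen by. In the cartilage list, 6 of 6 members were on the array and 3 were fitted, of which 1 was called lower, miR-455-5p itself, and 0 higher, against 2 of 192 (1.04%) over all fitted miRNAs. Both arms of miR-140, the best known cartilage miRNA, were detected on all arrays. miR-140-3p averaged 0.81 ± 0.41 in RE and 1.28 ± 0.32 in controls, and miR-140-5p averaged -1.69 ± 0.13 in RE and -1.58 ± 0.21 in controls (SD, n = 4 each), with log2 differences of -0.47 and -0.11 that did not pass. The median difference of the 3, which include miR-455-5p, was -0.47, against -0.18 for all fitted miRNAs. In the brown fat list, 6 of 8 members were on the array and 2 were fitted, with 1 called lower, again miR-455-5p, and 0 higher. The other was miR-365-3p, at -4.43 ± 0.42 in RE and -4.17 ± 0.36 in controls, a log2 difference of -0.26 that did not pass.

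Calls were also counted among miRNAs that share a target with miR-139-5p and read against the share of 1.04% over all fitted miRNAs, beside which a count of 0 in a short list is not a result about the list. Of 7 miRNAs known to repress IGF1R, 5 were detected on at least 1 array, 3 were fitted and 0 were called in either direction, with a median difference of -0.11. The brightest in controls were miR-497-5p, with a log2 difference of -0.21, and miR-99a-5p, with -0.11. Of 4 miRNAs known to repress CXCR4, 3 were fitted and 0 were called, with a median of -0.26. Among these miR-150-5p, a miRNA of lymphocytes, had -0.26, and miR-146a-5p, induced by inflammatory signals, had -0.31. The third, miR-126a-3p of endothelium, which is named here after its value was seen, had 0.26.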

How the data were processed

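The authors hybridised RNA from precipitated serum vesicles to the Agilent Rat miRNA Microarray and deposited intensity values from Feature Extraction 10.10.1.1, corrected for background but without scaling. The series value table holds the same numbers as the processed spot intensity for 15095 of 15095 features (tolerance 1e-06). No rat spot was saturated (0 spots). The software sums the probes of a miRNA that exceed 3 errors and lists 0.1 where none does. Here the total signal was divided by its 75th percentile among miRNAs detected on all 8 arrays and taken to log2. The study divided by a percentile over every measurement of a species, read here, for comparison, as the listed totals of all rat miRNAs. Whether those measurements were spots or totals is not stated. For the members, an undetected array stands at its own probe signal. In limma 3.58.1 (R 4.3.3, default prior, two-sided, Benjamini-Hochberg at 0.05), run on the 192 miRNAs detected on all arrays of a group, undetected arrays were set to a floor of 0.00350, the smallest scaled value that any detected miRNA had. The fit was tested on simulated data for miRNAs detected on all 8 arrays only, so values at the floor were not covered. The 4 miRNAs and all lists were chosen with earlier results of these data known. Besides the members, the miRNAs named are the 5 with the steadiest ratio to a member and those detected on the same arrays. From the cartilage, brown fat, IGF1R and CXCR4 lists, the 2 brightest and the called members are named, and miR-126a-3p after its value was seen. From the marker lists as such, only the called miR-208a-3p and miR-194-5p, detected on no array, are named. Alternatives covered the signal, background, scaling, floor, filter, variance model, the methods' tests, single probes and leaving out each array. The setting with undetected miRNAs at their own probe signal in the fit, and that with miR-455-5p at the floor, were chosen after seeing the data. Python 3.11.15 (numpy 2.4.6, pandas 2.3.3, matplotlib 3.10.9) was used for the rest. The number of arrays limits the precision.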

Additional observations from a re-analysis of the deposited data

Results flagged for a closer look

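Among 8 groups of 4 samples compared, 2 held a sample far from the other 3 by its gap to the nearest relative to the range. Chance alone gives about 1 such group in 20, or 0.4 here. For miR-139-3p, the log2 scaled signal of control replicate 2 was -1.90, with the nearest control at -2.70. RE replicate 10 had 4 of the 20 spots of miR-455-5p well above background, with 0 on each of the other 3 RE arrays, and since 3 values tied at 0 make any other value stand apart, the chance rate does not apply to it.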

How the results depend on the processing

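The log2 difference of miR-455-5p (-1.49) and that of miR-139-3p (-1.21) were 0.21 and 0.49 with the percentile over all rat miRNAs, the reading of the study's methods used here. There RE replicate 9 is divided by 0.1 and the median of all fitted miRNAs was 1.497. Relative to that median they were -1.29 and -1.01, against -1.31 and -1.03 in the reported values. They were -0.22 and -0.47 with normexp, whose offset of 50 shrinks log2 differences of low signals. That of miR-455-5p was -3.83 with undetected arrays at the common floor and -8.19 at 0.1. It stayed within the spread between replicates, from -1.87 to -0.89, in 13 other settings, and that of miR-139-3p, from -1.57 to -0.83, in 16. With 1 array left out the ranges were -1.87 to -0.89 for miR-455-5p and -1.57 to -0.83 for miR-139-3p, smallest in size without RE replicate 8 for both and largest without replicate 10. The count of miRNAs called lower (2) ran from 1 to 2 and that called higher stayed at 0 with 1 array left out, being 1 without control replicate 1, 2 or 3 or RE replicate 8 or 10. Both of the methods' tests, run on the scaling and floor used here, gave a count of 1 after either correction. The count was also 1 with no scaling, a filter of detection on 1 array or none at all, trend and robust variance, and undetected miRNAs at their own probe signal. It was 0 in limma with the mean spot signal (5 before adjustment), the median spot signal (7, with 1 higher), normexp (0), the percentile over all miRNAs (1) and the 144 miRNAs detected on all arrays (1). The difference of miR-139-5p, and the ratio of the miR-139 arms, had no value because miR-139-5p was not detected on any array, and miR-455-5p has only 1 probe. No paired analysis was possible because the groups share no replicate numbers. Signal over background limits miR-455-5p, whose RE arrays all lay under 3 errors.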
